A study of Mus musculus with 6 samples.

Results

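The genes described here are 8 genes of metal handling in mouse brain: the metallothioneins Mt1, Mt2 and Mt3, the transcription factor gene Mtf1, the zinc transporter genes Slc30a1, Slc30a3 and Slc39a10, and the manganese exporter gene Slc30a10. They were selected on their KO against WT values in these libraries, Mt1 and Mt2 above all, and taken by symbol from the GENCODE M21 annotation, which supplied 8 genes out of the 55450 in each deposited table, and all 8 passed the filter on low counts that left 21237 genes tested. Long RNA of whole mouse brain was sequenced for 2 genotypes, TRMT1L KO (3 libraries) and WT (3 libraries). TRMT1L is a relative of the tRNA methyltransferase TRMT1. The groups share the tissue and the preparation, in which total RNA over 200 bp was made into libraries with a TruSeq total RNA kit. The design text calls the replicates biological triplicates, and the strain, age, sex and kind of Trmt1l allele are not given in the sources used here.

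Metallothioneins are small proteins whose many cysteines bind zinc and copper. When free zinc rises, the zinc-sensing factor MTF1 binds metal response elements and turns on Mt1, Mt2 and the plasma membrane zinc exporter Slc30a1. Mt1 and Mt2 also respond to glucocorticoid hormone through the glucocorticoid receptor, whereas Mt3, the brain form, is known to respond little to either. In brain, Mt1 and Mt2 are made mainly by astrocytes and by cells lining the ventricles and vessels.

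The 3 coding sequences are shown because they show how alike the inducible and the brain forms are. They come from GENCODE M21 (the main transcript of each gene), run 5′ to 3′ without the stop codon, and have the cysteine codons in capitals.
Mt1: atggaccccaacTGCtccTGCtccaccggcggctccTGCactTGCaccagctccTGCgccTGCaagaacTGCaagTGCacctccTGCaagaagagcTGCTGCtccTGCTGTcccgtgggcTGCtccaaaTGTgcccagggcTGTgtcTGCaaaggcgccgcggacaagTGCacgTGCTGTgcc
Mt2: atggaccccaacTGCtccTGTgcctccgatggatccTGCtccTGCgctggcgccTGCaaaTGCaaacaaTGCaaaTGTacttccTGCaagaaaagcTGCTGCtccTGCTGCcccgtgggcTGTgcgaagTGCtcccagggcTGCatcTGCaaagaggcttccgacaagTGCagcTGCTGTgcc
Mt3: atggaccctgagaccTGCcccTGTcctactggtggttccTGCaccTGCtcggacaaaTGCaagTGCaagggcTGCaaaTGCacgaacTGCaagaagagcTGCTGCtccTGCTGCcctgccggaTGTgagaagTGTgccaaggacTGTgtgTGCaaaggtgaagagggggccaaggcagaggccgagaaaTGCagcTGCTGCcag
Each of the 3 held 20 cysteine codons, among 61 codons in Mt1 and Mt2 and 68 in Mt3. Aligned over their coding sequences, Mt1 and Mt2 were identical at 79.2% of 183 bases, Mt1 and Mt3 at 75.1% of 181 and Mt2 and Mt3 at 76.8% of 181. No stretch of 50 bases in the main transcript of Mt1, Mt2 or Mt3 occurred in the transcripts of another gene, and the longest identical run between aligned coding sequences was 27 bases.

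The 3 genes and the epidermal form Mt4 lie in a row on the plus strand of chromosome 8 of GRCm38. Mt4 is at 94137197 to 94139031, Mt3 (ENSMUSG00000031760.9) at 94152607 to 94154146, Mt2 (ENSMUSG00000031762.7) at 94172664 to 94173568 and Mt1 (ENSMUSG00000031765.8) at 94179082 to 94180327. The gap between Mt2 and Mt1 is 5513 bases, and that between Mt3 and Mt2 is 18517 bases. The 250 bases before the RefSeq start of Mt1, Mt2, Mt3 and Slc30a1 are shown because MTF1 acts at such sites. They come from RefSeq (GRCm38.p6), run 5′ to 3′ along the gene, and have each metal response element core in capitals (TGCACNC or TGCGCNC, on either strand).
Mt1, chr8:94178839-94179088, plus strand: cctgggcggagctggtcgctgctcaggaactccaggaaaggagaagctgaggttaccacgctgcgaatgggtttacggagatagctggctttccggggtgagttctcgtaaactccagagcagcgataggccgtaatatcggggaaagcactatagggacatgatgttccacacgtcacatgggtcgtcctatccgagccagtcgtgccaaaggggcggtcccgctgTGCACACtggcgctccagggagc
Mt2, chr8:94172368-94172617, plus strand: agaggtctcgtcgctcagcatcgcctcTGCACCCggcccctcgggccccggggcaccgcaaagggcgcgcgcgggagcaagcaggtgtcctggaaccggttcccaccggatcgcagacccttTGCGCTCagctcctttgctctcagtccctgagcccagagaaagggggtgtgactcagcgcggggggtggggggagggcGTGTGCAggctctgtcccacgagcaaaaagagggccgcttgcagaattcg
Mt3, chr8:94152357-94152606, plus strand: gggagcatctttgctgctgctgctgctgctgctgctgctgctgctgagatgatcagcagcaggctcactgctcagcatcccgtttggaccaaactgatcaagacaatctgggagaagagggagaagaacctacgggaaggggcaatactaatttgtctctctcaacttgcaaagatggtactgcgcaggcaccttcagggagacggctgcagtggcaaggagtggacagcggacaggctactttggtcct
Slc30a1, chr1:191906531-191906780, plus strand: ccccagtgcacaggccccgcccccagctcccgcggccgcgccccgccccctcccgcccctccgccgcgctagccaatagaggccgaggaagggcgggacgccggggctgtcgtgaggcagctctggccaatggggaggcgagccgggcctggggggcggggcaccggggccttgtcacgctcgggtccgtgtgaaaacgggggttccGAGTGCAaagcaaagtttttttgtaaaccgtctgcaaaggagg
Counted over 300 bases, from 250 before the start to 50 after it, Mt2 held 4 cores, Mt1 held 3, Slc30a1 held 2 and Mt3 held 1. The RefSeq starts of Mt1, Mt2 and Slc30a1 differ from their GENCODE starts, and cores outside the window were not counted. The order of the genes may therefore not hold for other windows. In Mt1 the cores after the start are TGCACTC at 94179091 to 94179097 and TGCGCTC at 94179109 to 94179115. Slc30a10 held 3 cores, of which 2 overlap. Slc30a3 held 1 core at the first of its 2 annotated starts and 0 at the second, and Mtf1 and both starts of Slc39a10 held 0. Among all 32851 RefSeq windows of that length, 25.7% held at least 1 core, 7.11% at least 2, 1.97% at least 3 and 0.517% at least 4. The full palindromic glucocorticoid response element was found in none of the members' windows and in 0.00913% of all windows. It is so rare in such windows that its absence here tells nothing about response to the hormone. One arm of it, TGTTCT, was found on either strand in Mtf1 and Slc30a3 among the members and in 19.0% of all windows. These are matches of letters in a short window, not measured binding.

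Counts in genes on the strand used ranged from 31201119 to 36145961 per library. Trmt1l itself had 93 to 106 counts in the KO libraries and 1034 to 1279 in the WT libraries, so the KO mean was 0.0833 of the WT mean. Neuron markers (6 of 6 tested, summed level 3974 to 4240 CPM) and astrocyte markers (9 of 9, 5541 to 5927 CPM) were abundant in all 6 libraries. CPM is a gene's count relative to its library's total on the usual scale, after TMM scaling between libraries. KO library 2 stood apart in genes that respond to glucocorticoid hormone, as described below, so the main results that rest on it are also given without it. In whole tissue, fewer cells of a type and less RNA per cell cannot be told apart.

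For Mt1 and Mt2 the lowest KO library lay above the highest WT library, while Mt3, Mtf1 and the 4 transporter genes overlapped between the groups. The 8 genes were chosen with the KO against WT changes of Mt1 and Mt2 in these libraries known, so their differences are given as a description without a test. The quasi-likelihood fit of edgeR over all 21237 genes with Benjamini-Hochberg adjustment called 0 of the 8, where it called 0.00942% of all genes. Without adjustment, 3 of the 8 had a p-value under 0.05 (Mt1 and Mt2 higher, Slc30a10 lower), against 7.92% of all genes, 4.54% higher and 3.38% lower. With limma-voom 0 of the 8 were called. With no filter on low counts edgeR called 2, Mt1 and Mt2, where it called 0.8% of genes. DESeq2's Wald test called 1, Mt1, but gave an adjusted p-value to only 3 of the 8 (Mt1, Mt3 and Slc39a10), and called 0.545% of the 4768 genes to which it gave one. Statements on DESeq2 calls below cover only such genes. Libraries of the 2 genotypes were fully separated for 2 members, both higher in KO, against 14.4% of all genes (7.46% higher, 6.97% lower). Since the members were selected on this contrast, nothing is read from these counts.

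Mt1, the more abundant of the inducible forms, had 85.4, 79.4 and 92.8 CPM in WT libraries 1 to 3 and 115, 135 and 113 CPM in KO libraries 1 to 3. The raw counts behind these were 3107, 2488 and 3054 in WT and 4002, 4528 and 4078 in KO. Every KO library lay above every WT library, and KO library 2 was the highest. The WT mean was 85.9 ± 6.73 CPM and the KO mean 121 ± 11.9 CPM (SD, n = 3 each), a log2 fold change of 0.49 (SE 0.0744). Without KO library 2 it was 0.41.

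Mt2 had 29.8, 29.8 and 25.9 CPM in the WT libraries and 38.1, 60.2 and 38.5 CPM in the KO libraries. Again the groups did not overlap, and KO libraries 1 and 3 were close to each other while KO library 2 was far above both. The WT mean was 28.5 ± 2.25 CPM and the KO mean 45.6 ± 12.7 CPM (SD, n = 3), a log2 fold change of 0.68 (SE 0.149) that was 0.43 without KO library 2. Mt2 is overlapped on the other strand by Gm45774, which held 1 to 9 reads of its own strand per library, so the strand column used for Mt2 was little affected by it. In the column without strand the overlap left Mt2 too few reads to be tested.

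Mt3, the brain form first known as growth inhibitory factor, had 67.7, 72.5 and 60.5 CPM in WT and 73.6, 71.5 and 71.9 CPM in KO. WT library 2 lay between the KO libraries, so the groups overlapped. The means were 66.9 ± 6.06 and 72.3 ± 1.13 CPM (SD, n = 3), a log2 fold change of 0.11 (SE 0.0635). It was 0.05 without WT library 3, 0.17 without WT library 2 and 0.000415 when GC content was corrected. Mt4 had 1 read over the 6 libraries and was not tested. A count of 0 in a library allows up to 3 counts, or 0.0824 to 0.0957 CPM, which covers counting error only.

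**Figure D1:**
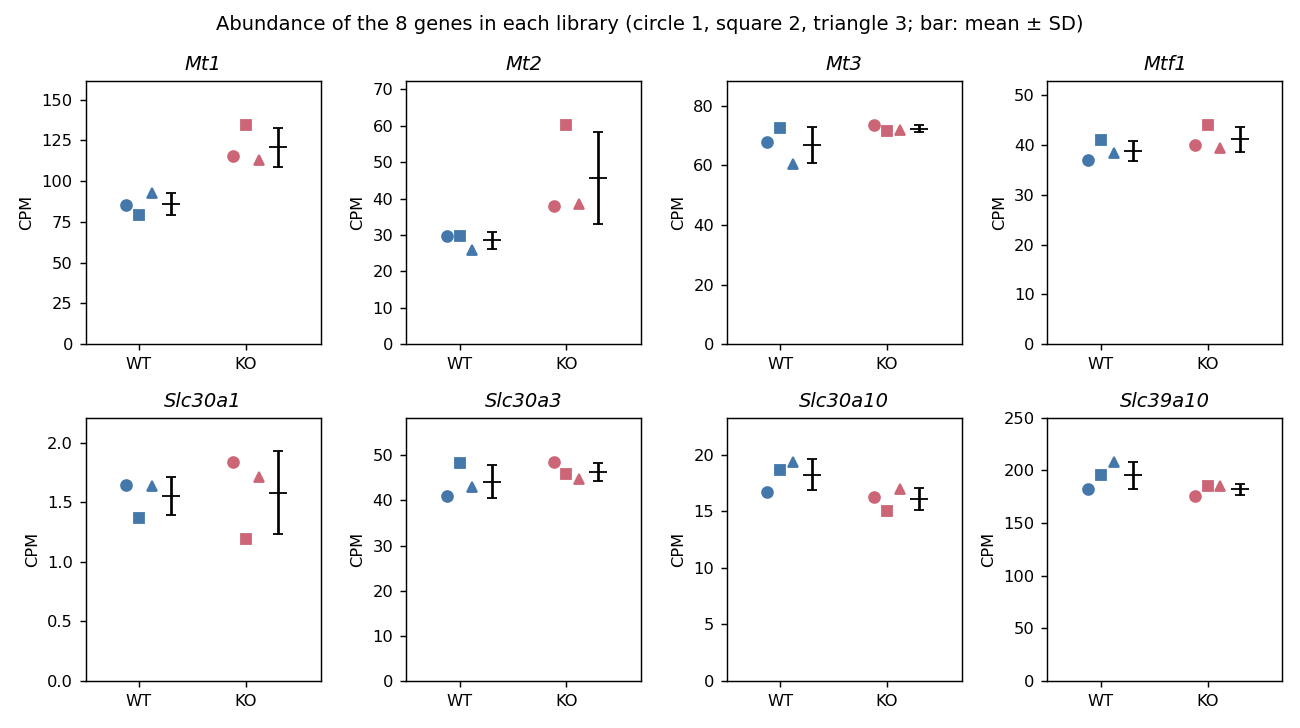
Abundance in CPM (vertical axes, each from 0) of the 8 genes in the 3 WT (blue) and 3 KO (red) libraries; circles, squares and triangles are libraries 1, 2 and 3, and the black bar is the mean ± SD. Mt1 and Mt2 are the panels in which all KO points lie above all WT points, with KO library 2 highest at 135 and 60.2 CPM.

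Ratios within a library do not depend on the scaling between libraries. The log2 ratio of Mt1 to Mt3 counts was 0.33, 0.13 and 0.62 in WT and 0.65, 0.91 and 0.65 in KO. The log2 ratio of Mt2 to Mt3 was -1.18, -1.29 and -1.22 in WT and -0.95, -0.25 and -0.90 in KO. For both ratios every KO library lay above every WT library, though for Mt1 to Mt3 the nearest libraries, WT 3 and KO 1, were 0.62 and 0.65. The log2 ratio of Mt1 to Mt2 was 1.52, 1.42 and 1.84 in WT and 1.60, 1.16 and 1.55 in KO, and these overlapped. The lowest Mt1 to Mt2 ratio was that of KO library 2, in which Mt2 was raised over the WT mean by 1.08 on the log2 scale and Mt1 by 0.65.

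Levels between genes were compared per kilobase of all annotated exon. In WT, Mt1 had 68.9 ± 5.40, Mt3 62.8 ± 5.68 and Mt2 48.5 ± 3.83 CPM per kilobase (SD, n = 3), and the SDs of Mt1 and Mt3 overlapped. In KO, Mt1 had 97.0 ± 9.55, Mt2 77.6 ± 21.5 and Mt3 67.9 ± 1.06, so Mt2 stood second in place of Mt3 but within its SD. The exons of Mt1 include retained introns, and per kilobase of the main spliced transcript (549 bases for Mt1, 511 for Mt2 and 536 for Mt3) the WT levels were 156 ± 12.3, 55.8 ± 4.41 and 125 ± 11.3. The order of the 3 in WT was the same by both lengths, while in KO Mt3, at 135 ± 2.10, lay above Mt2, at 89.2 ± 24.8, by the spliced length. The other members had lower levels: in WT, Slc39a10 had 32.0 ± 2.13, Slc30a3 15.6 ± 1.31, Mtf1 4.36 ± 0.233, Slc30a10 3.13 ± 0.237 and Slc30a1 0.296 ± 0.0301 CPM per kilobase of exon, and no SDs of neighbours in this order overlapped.

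Mtf1 (ENSMUSG00000028890.13, chromosome 4, 124802104 to 124849800), which encodes the zinc sensor itself, had 37.0, 41.1 and 38.4 CPM in WT and 40.0, 44.1 and 39.5 CPM in KO. KO library 2 was again the highest of the 6, but WT library 2 lay above both other KO libraries. Its log2 fold change was 0.09 (SE 0.0633), and it was 0.03 without KO library 2 and 0.05 without WT library 1.

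Slc30a1 (ENSMUSG00000037434.7, chromosome 1, 191906767 to 191913247), the zinc exporter that MTF1 induces along with the metallothioneins, had only 60, 43 and 54 counts in WT and 64, 40 and 62 in KO. That is 1.65, 1.37 and 1.64 CPM in WT and 1.84, 1.19 and 1.72 CPM in KO. KO library 2 had the least Slc30a1 of the 6. The log2 fold change was 0.03 with an SE of 0.201. At this depth a change of the size of that of Mt1 would not be well resolved. The fold change was 0.19 without KO library 2, -0.05 without WT library 2, -0.10 without KO library 1 and -0.04 without KO library 3.

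Slc39a10 (ENSMUSG00000025986.6, chromosome 1, minus strand, 46807544 to 46892852) encodes a zinc importer that MTF1 is known to repress. It had 182, 195 and 208 CPM in WT and 176, 185 and 185 CPM in KO, a log2 fold change of -0.10 (SE 0.0526). It was -0.05 without WT library 3 and -0.07 when GC content was corrected. The lowest WT library lay below 2 of the KO libraries, so the groups overlapped. Features of the same strand (Gm28151 and Gm37393) lie over part of it, and reads shared with them are not in its count. Of its 50-base stretches 0.496% also occur in Gm6801.

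Slc30a3 (ENSMUSG00000029151.14, chromosome 5, minus strand, 31086106 to 31108237) loads zinc into synaptic vesicles of glutamatergic neurons. It had 41.1, 48.3 and 43.1 CPM in WT and 48.6, 45.9 and 44.7 CPM in KO, a log2 fold change of 0.07 (SE 0.0667) that was -0.02 when GC content was corrected. It was 0.02 without WT library 1, 0.04 without KO library 1 and 0.14 without WT library 2. The groups overlapped. Markers of forebrain glutamatergic neurons, which make this transporter, had a median log2 fold change of -0.01 over 6 genes (-0.09 without WT library 1, 0.05 without WT library 2).

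Slc30a10 (ENSMUSG00000026614.6, chromosome 1, 185454848 to 185468762), which exports manganese, had 16.7, 18.6 and 19.4 CPM in WT and 16.3, 15.0 and 17.0 CPM in KO. KO library 2 was the lowest of the 6, and WT library 1 lay within the KO range. The log2 fold change was -0.18 (SE 0.0803), and without KO library 2 it was -0.13 (SE 0.0821).

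**Figure D2:**
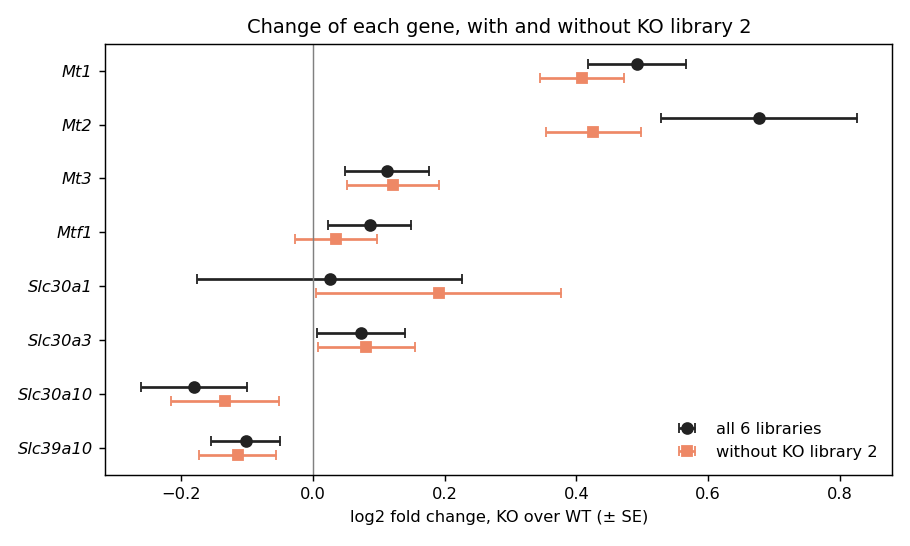
Log2 fold change of KO over WT (horizontal axis, ± SE) for the 8 genes, fitted with all 6 libraries (black circles) and without KO library 2 (orange squares). Mt2 moves from 0.68 to 0.43 and Mt1 from 0.49 to 0.41, and the other 6 genes lie between -0.18 and 0.19 in both fits.

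The 2 families of zinc transporters were read whole, to place the members among their relatives. SLC30 proteins move zinc out of the cytosol and SLC39 proteins move it in. Of the 10 SLC30 genes 8 were tested, with 2 higher and 6 lower in KO. The median log2 fold change was -0.05 (range -0.18 to 0.07) against 0.00013 over all genes tested. It was -0.01 when GC content was corrected. None of the 8 had groups that did not overlap, against 14.4% of all genes tested. Slc30a2 and Slc30a8 had at most 5 and 2 counts in a library and were not tested. Of the 14 SLC39 genes 13 were tested, with 8 higher and 5 lower and a median of 0.0035 (range -0.27 to 0.20). Without KO library 2, 5 of the 13 were higher and the median was -0.01, and without WT library 2 it was -0.03. Slc39a5, with at most 8 counts in a library, was not tested. In neither family was a gene called by edgeR, DESeq2 or limma-voom. At an unadjusted p-value under 0.05 there was 1 gene in each, Slc30a10 and Slc39a3, against 7.92% of all genes.

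Slc39a3, a plasma membrane importer, was the one tested transporter whose groups did not overlap, against 14.4% of all genes. It had 41.4, 41.4 and 38.8 CPM in WT and 42.1, 45.1 and 46.5 CPM in KO. Its log2 fold change was 0.14 (SE 0.0579; edgeR adjusted p = 0.620). By level, Slc30a3 and the mitochondrial transporter gene Slc30a9 led the exporters in WT, at 15.6 ± 1.31 and 11.6 ± 0.275 CPM per kilobase. Slc39a10 and the astrocyte gene Slc39a12 led the importers, at 32.0 ± 2.13 and 14.6 ± 0.384. Slc30a1 was the lowest of the 8 tested exporters.

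**Figure D3:**
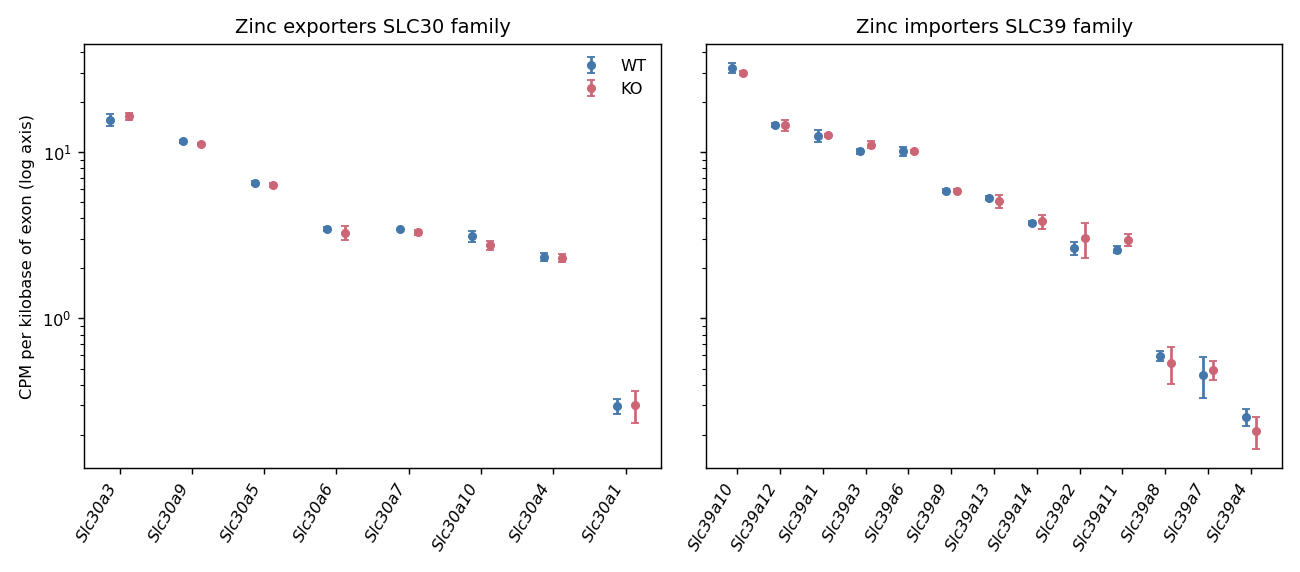
CPM per kilobase of annotated exon (vertical log axis) for the SLC30 genes (left) and SLC39 genes (right) with at least 100 counts over the 6 libraries, ordered by the WT mean; points are means of 3 WT (blue) or 3 KO (red) libraries and bars are SDs. Slc30a3 and Slc39a10 head the families at 15.6 and 32.0 in WT, and Slc30a1 sits at 0.296, the lowest exporter shown.

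Known targets of MTF1 were set beside genes that respond to glucocorticoid hormone, since Mt1 and Mt2 respond to both signals. Of 11 MTF1 targets all 11 were tested, with a median log2 fold change of 0.01. It was 0.03 without KO library 2, -0.03 without KO library 1 and -0.02 without WT library 3, so its sign was not settled. In the unstranded column, in which Mt2 was not tested, the median was -0.01. With Mt1, Mt2, Slc30a1 and Slc39a10 set aside, 3 of the other 7 were higher and 4 lower in KO, with a median log2 fold change of -0.03. The hypoxia and cadmium gene Ndrg1 had -0.08 (SE 0.0960; -0.17 without KO library 2), the LIM protein gene Csrp1 0.01 (SE 0.0520), and the selenoprotein gene Selenow -0.03 (SE 0.0546). The selenoprotein gene Selenoh had 0.16 (SE 0.156; 0.26 without KO library 2) and the placental growth factor gene Pgf 0.23 (SE 0.223). None of the 7 was called by any of the 3 tools, and 1, the iron exporter Slc40a1, had an unadjusted p-value under 0.05, against 7.92% of all genes.

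Slc40a1 (ferroportin) had 16.0, 15.4 and 12.8 CPM in WT and 12.8, 10.1 and 12.8 CPM in KO, with -0.31 as the log2 fold change (SE 0.114; edgeR adjusted p = 0.579). Its groups were separated by the narrowest of margins, since WT library 3 and both KO libraries 1 and 3 all rounded to 12.8 CPM. KO library 2 was the lowest, and without it the log2 fold change was -0.21. Gclc, which makes glutathione, was the other MTF1 target with no overlap, at -0.07 (SE 0.0521, edgeR adjusted p = 0.762) and -0.04 without KO library 2. Over all genes tested, 14.4% had no overlap.

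The 15 glucocorticoid-responsive genes were all tested and all 15 had a higher mean in KO, with a median log2 fold change of 0.46 (range 0.06 to 2.38). None was called over all genes by edgeR, DESeq2 or limma-voom, and 5 had an unadjusted p-value under 0.05 in edgeR, all higher, against 4.54% of all genes. The size rested on 1 library: without KO library 2 the median was 0.09, 12 of the 15 were higher and 1 had an unadjusted p-value under 0.05. In KO library 2, 14 of the 15 lay above every WT library, with a median of 0.98 over the WT mean on the log2 scale. In KO library 1, 14 of the 15 also lay above every WT library, with a median of 0.29. In KO library 3 the median was -0.17, 1 lay above every WT library and 9 lay below every WT library. WT libraries 1 to 3 had medians of 0.07, -0.01 and -0.16, so KO library 3 lay close to WT library 3.

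Plin4, a lipid droplet gene known as a sharp responder to glucocorticoid, had 3.11, 3.09 and 2.40 CPM in WT and 5.12, 36.4 and 3.54 CPM in KO. Fkbp5, a chaperone of the glucocorticoid receptor, had 21.8, 20.5 and 22.8 CPM in WT and 24.1, 46.3 and 20.0 CPM in KO. Sgk1, a kinase induced by the hormone, had 55.0, 55.4 and 47.0 CPM in WT and 69.8, 134 and 46.6 CPM in KO. In all 3 genes KO library 2 stood far above the rest. KO library 3 lay below every WT library for Fkbp5 and Sgk1 and above every WT library for Plin4. Plin4 was the one gene of the list whose groups did not overlap (log2 fold change 2.38, SE 0.721; edgeR adjusted p = 0.576). The change was 0.59 without KO library 2. Over all genes tested, 14.4% had groups that did not overlap.

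Set beside these, Mt1 in KO libraries 1, 2 and 3 was above the WT mean by 0.42, 0.65 and 0.39 on the log2 scale, and Mt2 by 0.42, 1.08 and 0.43. KO library 2 was thus highest for both metallothioneins and for the glucocorticoid list. KO libraries 1 and 3 had nearly the same Mt1 and Mt2. The median of the glucocorticoid list lay at 0.29 in KO library 1 and at -0.17 in KO library 3. The receptor gene Nr3c1 itself was lower in every KO library, with 133, 136 and 144 CPM in WT and 129, 118 and 126 CPM in KO (log2 fold change -0.15, SE 0.0511; edgeR adjusted p = 0.579). Whether metal or hormone is behind the metallothionein levels was not tested.

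**Figure D4:**
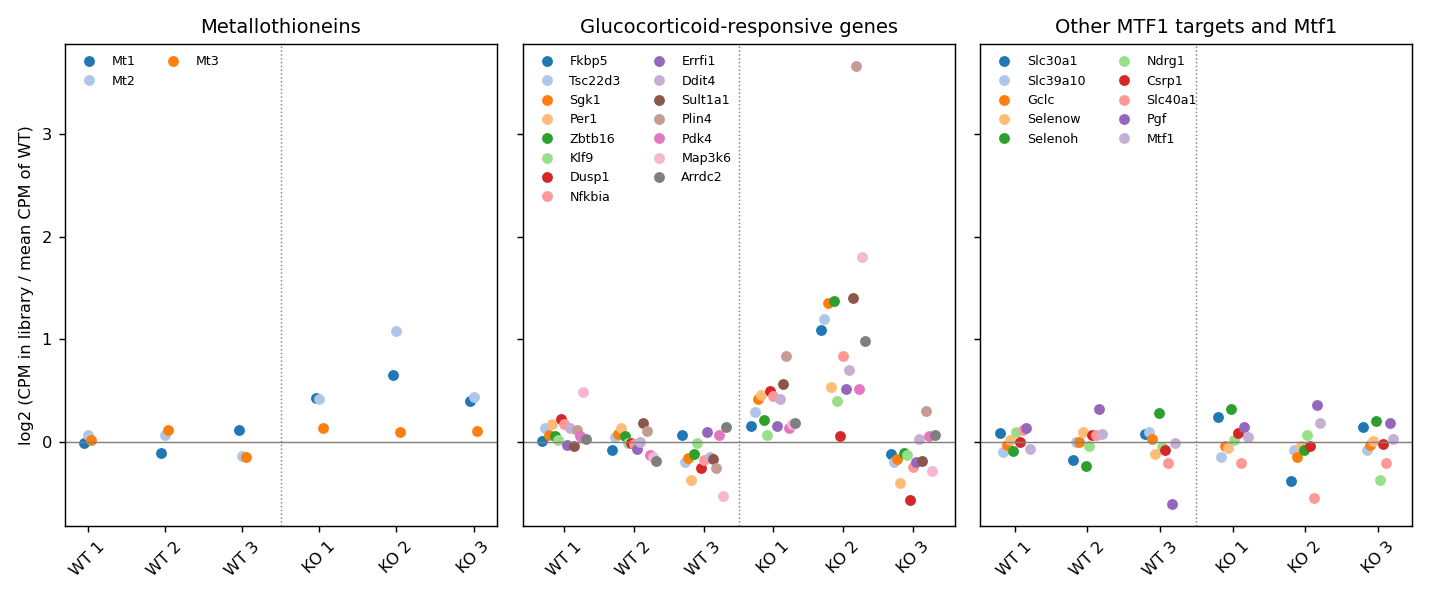
Log2 of the CPM in each library over the mean CPM of the 3 WT libraries (vertical axis) for Mt1, Mt2 and Mt3 (left), the 15 glucocorticoid-responsive genes (middle) and the other MTF1 targets with Mtf1 (right); each point is 1 gene in 1 library. In KO library 3 Mt1 and Mt2 stand at 0.39 and 0.43. The median of the middle panel is -0.17 in KO library 3 and -0.16 in WT library 3, and in KO library 2 Plin4 reaches 3.67.

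Genes of other routes known to act on metallothionein genes were read in the same way. Of the 10 NRF2 targets, which answer oxidative stress, 8 were higher and 2 lower, with a median log2 fold change of 0.10 that was -0.01 without KO library 3 and 0.11 without KO library 2. In 4 of the 10 the genotypes were fully separated, against 14.4% of all genes, and they did not share a direction: Gclm, which makes glutathione with Gclc, had -0.15 (SE 0.0533; edgeR adjusted p = 0.579), while the thioredoxin reductase gene Txnrd1 had 0.11 (SE 0.0574) and the autophagy receptor gene Sqstm1 had 0.09 (SE 0.0416). Hmox1, the most responsive of them to heme and metals, had 2.31, 2.74 and 2.37 CPM in WT and 2.36, 2.47 and 7.75 CPM in KO, so it was high in KO library 3 and in no other. All 8 tested genes of the interleukin-6 and STAT3 response were higher, with a median of 0.16, and 3 had an unadjusted p-value under 0.05, against 4.54% of all genes that were higher at that level. That median was 0.10 without KO library 3, 0.25 without KO library 1, 0.26 without KO library 2 and 0.33 without WT library 3. Among them Cebpd had 1.13, 1.24 and 1.12 CPM in WT and 1.35, 2.17 and 1.80 CPM in KO (log2 fold change 0.60, SE 0.207; edgeR adjusted p = 0.579). Stat3 itself had 0.13 (SE 0.0540; edgeR adjusted p = 0.614), also with no overlap. Gfap, the intermediate filament of reactive astrocytes, was 248 CPM in KO library 3 and 115 to 140 CPM in the other 5. Neither list held a gene called by edgeR, DESeq2 or limma-voom. KO library 3, whose glucocorticoid median was the lowest but close to that of WT library 3, had the highest Hmox1 and Gfap.

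Copper handling genes, which serve the other metal that metallothioneins bind, gave a median log2 fold change of 0.02 (0.0011 without WT library 3, 0.07 without WT library 1) over 9 genes with 0 past an unadjusted p-value of 0.05. Iron handling genes gave a median of 0.04 over 10 genes, with 6 higher and 4 lower, and -0.01 without KO library 1. The ferritin light chain gene Ftl1 had 52.6, 48.3 and 45.9 CPM in WT and 55.7, 54.2 and 66.3 CPM in KO (log2 fold change 0.26, SE 0.0796; edgeR adjusted p = 0.576), with no overlap. Its many processed pseudogenes could take part of its reads, so these values are uncertain. Ireb2, a sensor of cell iron, had -0.09 (SE 0.0419), with no overlap.

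Markers of the cells that make metallothioneins were read in the same libraries. Over all genes tested, 14.4% had groups that did not overlap, 7.46% higher and 6.97% lower in KO. Astrocyte markers, 9 of 9 tested, had a median log2 fold change of 0.0018 (-0.02 to 0.02 on leaving out 1 library) and a summed level of 5757 to 5927 CPM in WT and 5541 to 5803 CPM in KO. Single astrocyte markers with no overlap went both ways, with Aldh1l1 at 0.18 (SE 0.0560), Fgfr3 at 0.13 (SE 0.0508; 0.09 without KO library 2) and Aqp4 at -0.17 (SE 0.0544). Endothelial and mural markers (10 of 10) summed to 415 to 424 CPM in WT and 397 to 423 CPM in KO, with 6 higher, 4 lower and a median of 0.03. Without KO library 2, 4 of the 10 were higher. The median turned to -0.02 without KO library 2, -0.04 without KO library 3, -0.0073 without WT library 1 and -0.01 with GC correction. The one with no overlap was the pericyte gene Rgs5 at -0.08 (SE 0.0470). Ependymal markers (5 of 6 tested) summed to 12.3 to 15.0 CPM in WT and 14.9 to 17.2 CPM in KO, with 3 higher, 2 lower and a median of 0.02. That median was 0.31 without WT library 1, 0.21 in the unstranded column and 0.20 over genes with a mean count of at least 50, and -0.02 without WT library 3. The one with no overlap was Foxj1, the regulator of motile cilia, at 0.37 (SE 0.118). Meningeal markers (7 of 7) summed to 85.4 to 96.6 CPM in WT and 77.1 to 96.5 CPM in KO, with 3 higher, 4 lower and a median of -0.02 (-0.12 to 0.04 on leaving out 1 library, the ends without WT libraries 1 and 3). The 2 with no overlap were the matrix genes Lum at -0.42 (SE 0.152) and Dcn at -0.26 (SE 0.0757), against 6.97% of all genes lower without overlap. Choroid plexus markers had a higher KO mean in 8 of 8, without overlap in 4 (7.46% of all genes were higher without overlap), with a median of 0.20 and a summed level of 321 to 377 CPM in WT and 382 to 456 CPM in KO. Ttr, which makes up most of that sum, was 0.29 higher on the log2 scale (SE 0.0757; edgeR adjusted p = 0.576) and was the one choroid plexus marker called by DESeq2. Aqp1 had 0.39 (SE 0.134) and Kcne2 0.35 (SE 0.181). Blood markers (5 of 5 higher, median 0.52) summed to 109 to 149 CPM in WT. In KO libraries 1 to 3 they summed to 247, 98.3 and 181 CPM, and KO library 2 had the lowest sum of the 6. The blood median was 0.15 without KO library 1 and 0.80 without KO library 2. Of other cells, microglia markers were higher in 2 and lower in 4 of 6, with a median of -0.09 (-0.18 without KO library 3, -0.0057 without WT library 2). P2ry12, the one with no overlap, had -0.34 (SE 0.0741; edgeR adjusted p = 0.550). The neuron genes Snap25, Slc17a7 and Stmn2 had -0.09 (SE 0.0432), 0.08 (SE 0.0382) and -0.02 (SE 0.0383). No marker in these lists was called by edgeR or limma-voom. The part of choroid plexus or blood in the metallothionein levels was not tested.

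Genes with the most similar pattern over the 6 libraries were listed among 17301 genes with a mean of at least 1 CPM. By Pearson correlation of log2 CPM with Mt1 they were Rnf10, Usp39, Recql4, Kcnk4 and Apba3, with r from 0.987 to 0.993. With Mt2 they were Tmem101, Cers1, Psph, Tjap1 and Hdgfl2, with r from 0.987 to 0.999. All 10 were higher in KO, by 0.10 to 0.35 on the log2 scale, a smaller difference than that of Mt1 or Mt2. These are the extremes of a search over many genes in 6 libraries that share a genotype split, and are a description.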

How the data were processed

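The authors deposited 1 table of raw read counts per library, in the layout of STAR gene counts; cutadapt 1.9.1 and STAR 2.7.0f are named per the submitters' processing notes, and the genome build and annotation are not given in the sources used here. The 55450 versioned gene identifiers are those of GENCODE M21 (GRCm38), which supplied names, positions and lengths. The last column, on the strand opposite to the first read, held 94.6% to 94.8% of stranded counts and was used. Rows that name no gene (57.7% to 60.2% of reads) were left out. Counts were filtered with filterByExpr, scaled by TMM and tested with edgeR 4.0.16 (quasi-likelihood, genotype only, 6 libraries) in R 4.3.3, with Benjamini-Hochberg adjustment over 21237 genes. The alternatives used DESeq2 1.42.0 and limma 3.58.1. The SE is the fold change divided by the root of F. The fit was tested on simulated counts. Libraries of a group differed by more than sampling noise (chi-square per degree of freedom 4.08 to 8.69). The members and lists were chosen with earlier results of these data known. Named were the members, Mt4 and Trmt1l, up to 3 genes per list with no overlap between groups, at least 1 CPM and the largest change, and the 5 genes most like Mt1 and like Mt2. One marker list and a gene the rule takes from it are not reported here. Outside this rule, Fkbp5, Sgk1, Hmox1, Gfap, Ndrg1, Csrp1, Selenow, Selenoh, Pgf, Slc30a9 and Slc39a12 were chosen after their values were seen.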

Additional observations from a re-analysis of the deposited data

How the results depend on the processing

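The log2 fold change of Mt1 lay between 0.41 and 0.55 and that of Mt2 between 0.43 and 0.79 over all alternatives run, both ends set by leaving out 1 library (Mt2 could not be fitted in the unstranded column). Both were called with no filter on low counts (0.50 for Mt1, 0.68 for Mt2), and Mt1 also by DESeq2's Wald test with and without independent filtering (0.49 in each). The number of members called was therefore 2 with no filter and 1 with either DESeq2 setting, and 0 elsewhere, all 6 fits without 1 library included. The number of genes called, 2, was 298 with no filter, 26 with DESeq2, 15 with DESeq2 without independent filtering, 4 with the replicate block, and from 2 to 5 without 1 library. DESeq2 without independent filtering and edgeR's revised method were chosen after seeing the data. Slc30a1 reversed to -0.05 without WT library 2, -0.10 without KO library 1 and -0.04 without KO library 3, within a range of -0.10 to 0.19 (the latter without KO library 2). Slc30a3 reversed to -0.02 with GC correction (-0.0245) and with the replicate block and GC correction (-0.0233). The median of the metallothioneins was 0.31 in the unstranded column, in which Mt2 was not tested and only Mt1 and Mt3 were. With GC correction, alone or with the replicate block, the SLC30 median was -0.01 (-0.0145 and -0.0147) and that of all 11 MTF1 targets, 0.01 without it, turned to -0.04 (-0.0424 and -0.0431). Leaving out 1 library, the glucocorticoid median ranged from 0.09 to 0.65, the KO minus WT log2 ratio of Mt1 to Mt3 from 0.26 to 0.50, of Mt2 to Mt3 from 0.30 to 0.66 and of Mt1 to Mt2 from -0.24 to -0.02. Same-numbered libraries deviated with correlations of 0.040, -0.031 and -0.058 over all genes. These values give no sign of pairing but cannot exclude it. The replicate block gave 0.49 for Mt1 and 0.65 for Mt2, with no member called. Depth limits Slc30a1, at 40 to 64 counts per library.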
